A study of Mus musculus with 12 samples.

Results

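The ATF4 and CHOP stress response genes described here are Atf4, Atf3, Atf5, Ddit3, Trib3, Asns, Sesn2, Ddit4, Ppp1r15a and Nupr1. They were chosen by name as members of this pathway, with earlier results of these data known, and their rows were read from the deposited table by symbol. The 10 genes are among 24502 genes listed, and all 10 passed the filter on low counts that left 14827 genes for testing.

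When amino acids run short, unfolded proteins accumulate in the endoplasmic reticulum, haem is lacking or double-stranded RNA is present, kinases phosphorylate the translation factor eIF2 alpha. General protein synthesis then falls while the Atf4 mRNA is translated more, and ATF4 switches on genes for amino acid synthesis and uptake, the transcription factor CHOP (encoded by Ddit3) and the feedback regulators TRIB3 and GADD34 (encoded by Ppp1r15a). Activated T cells are known to draw on the same programme to feed rapid growth. Because ATF4 is set largely by translation, an mRNA level is not a measure of its protein, which was not analysed here.

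RNA was measured in regulatory T cells (Treg cells), the Foxp3-expressing CD4 T cells that restrain immune responses, from 11-week-old mice. Gpx4-deficient cells came from Foxp3CreGpx4fl/fl mice, in which Cre recombinase under the control of Foxp3 deletes a loxP-flanked Gpx4, and the controls are labelled only WT, so an effect of Cre itself cannot be told apart from that of the deletion. The 4 groups, with 3 libraries each, were Gpx4-deficient cells stimulated for 4 h by anti-CD3 and anti-CD28 coated on the plate (5 µg/ml), wild-type cells after the same stimulation, unstimulated Gpx4-deficient cells and unstimulated wild-type cells. No culture time is given for the unstimulated cells, so stimulation and culture cannot be told apart.

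ATF4 and its partners act through short motifs near the start of their target genes, so the promoter sequences that hold such a motif are shown first. The motif searched for ATF4 with a C/EBP partner was the core of the C/EBP-ATF response element, TGATGNAA. The cyclic AMP response element TGACGTCA, bound by CREB and ATF factors, and the AP-1 element TGANTCA, bound by Fos and Jun, were searched beside it. All were searched on both strands of RefSeq promoter windows of GRCm38.p6, from 250 bases before to 50 bases after the annotated start. All 10 genes matched, with 11 windows because Atf5 has 2. Capitals mark the match in each sequence, which is written 5′ to 3′ on the strand of the gene. The windows with the ATF4 core were those of Asns, Atf3, Trib3 and Nupr1.
Asns (chr6:7693160-7693459, minus strand): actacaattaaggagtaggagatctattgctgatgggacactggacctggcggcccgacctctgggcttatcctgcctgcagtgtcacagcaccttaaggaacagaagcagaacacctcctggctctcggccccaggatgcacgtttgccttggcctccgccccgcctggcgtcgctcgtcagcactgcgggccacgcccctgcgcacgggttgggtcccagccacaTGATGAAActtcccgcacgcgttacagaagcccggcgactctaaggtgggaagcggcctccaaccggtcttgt
Atf3 (chr1:191183284-191183583, minus strand): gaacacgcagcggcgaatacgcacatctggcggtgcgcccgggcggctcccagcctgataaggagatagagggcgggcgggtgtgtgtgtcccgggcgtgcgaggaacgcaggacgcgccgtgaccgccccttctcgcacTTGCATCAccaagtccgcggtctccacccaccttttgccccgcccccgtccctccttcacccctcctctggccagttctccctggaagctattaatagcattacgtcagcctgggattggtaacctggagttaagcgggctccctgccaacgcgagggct
Trib3 (chr2:152344011-152344310, minus strand): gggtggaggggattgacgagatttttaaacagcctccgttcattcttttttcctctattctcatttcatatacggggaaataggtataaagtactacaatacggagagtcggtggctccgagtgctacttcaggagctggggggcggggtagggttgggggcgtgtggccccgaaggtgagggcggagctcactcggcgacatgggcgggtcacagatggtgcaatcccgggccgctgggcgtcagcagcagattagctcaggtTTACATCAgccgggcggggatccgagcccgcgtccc
Nupr1 (chr7:126625421-126625720, minus strand): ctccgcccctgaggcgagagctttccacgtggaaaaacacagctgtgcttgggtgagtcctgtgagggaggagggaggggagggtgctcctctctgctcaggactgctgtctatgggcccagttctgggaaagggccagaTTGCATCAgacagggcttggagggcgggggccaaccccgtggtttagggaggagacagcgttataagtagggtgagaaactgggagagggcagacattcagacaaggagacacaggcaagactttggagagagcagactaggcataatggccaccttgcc
The capitals read TGATGAAA in Asns and, as the reverse complement of the core, TTGCATCA in Atf3 and Nupr1 and TTACATCA in Trib3. The core was thus present in 4 of the 11 windows, against 3.97% of the 32851 windows of all genes. Counted from the annotated start, it lay at -23 to -16 in Asns and at -110 to -103 in both Atf3 and Nupr1. In Trib3 it lay at 14 to 21, past the start. The windows of Atf3 and Nupr1 lie inside the annotated genes, which extend upstream to 191218039 and 126630861. The other two windows with a match were those of Ppp1r15a, which holds the cyclic AMP response element at -12 to -5, and Ddit3, which holds the AP-1 element at -242 to -236.
Ppp1r15a (chr7:45526219-45526518, minus strand): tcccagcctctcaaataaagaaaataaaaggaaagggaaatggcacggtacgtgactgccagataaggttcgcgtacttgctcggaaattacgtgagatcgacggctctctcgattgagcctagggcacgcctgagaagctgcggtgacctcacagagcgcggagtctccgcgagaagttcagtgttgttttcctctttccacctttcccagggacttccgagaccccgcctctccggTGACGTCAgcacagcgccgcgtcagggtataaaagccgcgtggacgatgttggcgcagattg
Ddit3 (chr10:127290543-127290842, plus strand): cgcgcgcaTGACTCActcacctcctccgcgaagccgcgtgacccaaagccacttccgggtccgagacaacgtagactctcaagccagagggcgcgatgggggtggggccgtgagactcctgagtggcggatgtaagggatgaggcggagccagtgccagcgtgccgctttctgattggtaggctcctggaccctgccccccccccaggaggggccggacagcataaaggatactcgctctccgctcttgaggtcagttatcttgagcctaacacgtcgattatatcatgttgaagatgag
Of all windows, 1.79% held the cyclic AMP response element and 7.81% the AP-1 element. Neither of these nor the ATF4 core was found in the windows of Atf4, Atf5, Ddit4 and Sesn2. A match describes these letters and does not show that a factor binds there.

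**Figure D1:**
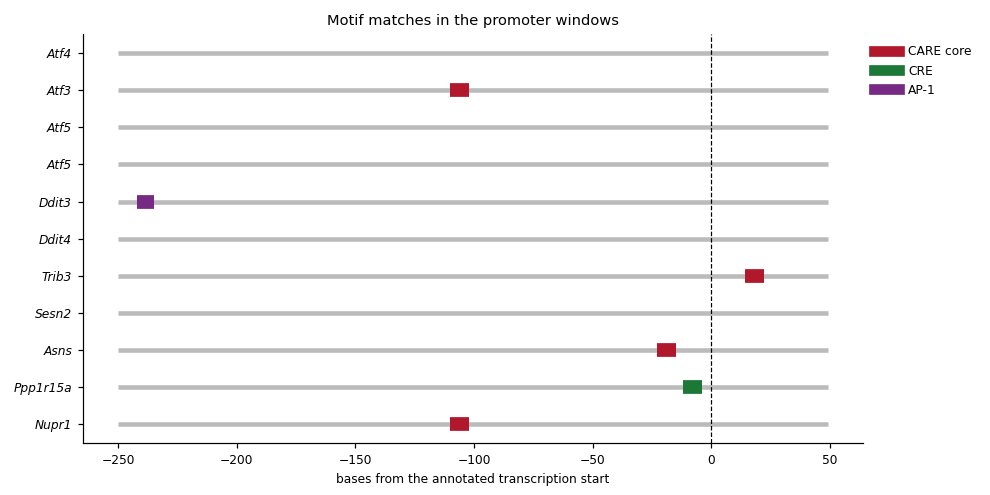
Each grey bar is the promoter window of 1 gene (Atf5 has 2), drawn from 250 bases before to 50 bases after the annotated transcription start (dashed line), and coloured blocks are motif matches on either strand. The ATF4 core (CARE core) appears in Atf3, Trib3, Asns and Nupr1, the cyclic AMP response element (CRE) in Ppp1r15a and the AP-1 element in Ddit3.

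The libraries held between 24629230 and 31879267 counts. Gpx4 reached 3.34 to 9.23 CPM (counts scaled to library size, with TMM factors) in stimulated Gpx4-deficient libraries. It reached 69.2 to 107.5 CPM in stimulated wild-type, 4.96 to 12.3 CPM in unstimulated Gpx4-deficient and 141.9 to 172.1 CPM in unstimulated wild-type libraries. All 12 libraries thus matched their genotype labels. The summed level of 8 Treg cell markers was 6937 to 7825, 6587 to 7010, 3527 to 3834 and 3763 to 3822 CPM in the same order of groups, and no marker of that list was at 0 in any group. Stimulated Gpx4-deficient libraries resembled each other least (correlations across genes of 0.684 to 0.733, against 0.87 to 0.906 in stimulated wild-type ones) and had the highest mitochondrially encoded share (2.84 to 3.72%, against 1.18 to 1.37%). Within that group replicate 3 stood furthest out, with 190 otherwise expressed genes at 0 (140 and 107 in replicates 1 and 2) and a mitochondrial share of 3.72%. Among unstimulated Gpx4-deficient libraries replicate 1 did, with 57 such genes (43 and 9 in replicates 2 and 3) and a share of 1.94%. Separate animals are not stated for the libraries of a group, so a p-value reflects the spread among the libraries alone, which may be technical. Identifiers run in a block per genotype, so that batch and genotype cannot be told apart. In bulk RNA, fewer cells of a type and less RNA per cell cannot be told apart.

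Most of the 10 transcripts differed between stimulated and unstimulated cells in both genotypes, and in opposite directions within the pathway. Asns, Atf3, Trib3, Sesn2 and Atf4 rose in Gpx4-deficient and in wild-type cells, Ddit3 rose in wild-type cells, and Ppp1r15a fell in both. In Gpx4-deficient cells 6 of the 10 were called at an adjusted p under 0.05 by the edgeR quasi-likelihood test, 5 higher and 1 lower, where 15.3% of all genes tested were called, 7.45% higher and 7.83% lower. In wild-type cells 7 of the 10 were called, 6 higher and 1 lower, where 11.5% of all genes were called, 6.12% higher and 5.41% lower. The median log2 fold change of the 10 was 1.52 in Gpx4-deficient cells and 3.48 in wild-type cells, against -0.02 and -0.03 over all genes tested. Stimulated and unstimulated libraries did not overlap for 8 of the 10 in Gpx4-deficient cells and 9 in wild-type cells. The same was true of 29.8% and 42.0% of all genes tested.

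**Figure D2:**
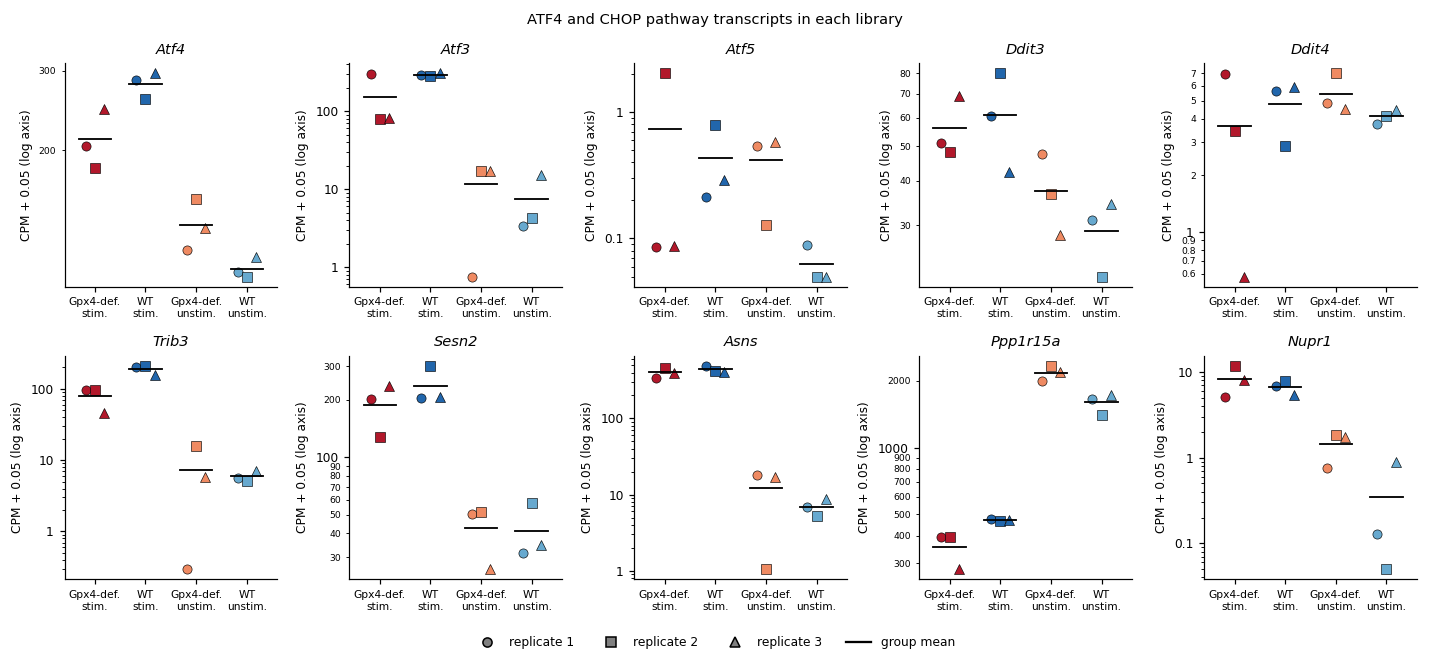
Each panel shows 1 gene in the 12 libraries as CPM plus 0.05 on a logarithmic axis, with symbols for replicates and a bar for the group mean. Stimulated libraries (left pair) lie above unstimulated ones (right pair) for Asns, Atf3, Trib3, Sesn2 and Atf4 and below them for Ppp1r15a, which was lower after stimulation in both genotypes.

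Atf4, the central transcription factor of the response, is on chromosome 15, between 80255184 and 80257541 on the plus strand of GRCm38. It stood at 205, 183 and 246 CPM in stimulated Gpx4-deficient libraries, 285, 259 and 296 CPM in stimulated wild-type libraries, 120.5, 156 and 135 CPM in unstimulated Gpx4-deficient libraries and 108, 105 and 116 CPM in unstimulated wild-type libraries. The 4 groups were fully ordered, with every stimulated wild-type library highest and every unstimulated wild-type library lowest, and no group overlapped another. With stimulation Atf4 rose 1.54-fold in Gpx4-deficient cells (log2 fold change 0.62, SE 0.15, adjusted p = 0.0134) and 2.55-fold in wild-type cells (1.35, SE 0.15, adjusted p = 7.71e-05).

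Ddit3 encodes CHOP, a C/EBP family factor that ATF4 induces and that promotes cell death when stress persists. The gene is on chromosome 10 from 127290774 to 127296288 (plus strand), and its exons share 68 bases, 3.97% of their length, with Mars on the opposite strand. It had 50.9, 48.0 and 69.2 CPM in stimulated Gpx4-deficient libraries and 60.8, 80.0 and 42.3 CPM in stimulated wild-type libraries. Unstimulated Gpx4-deficient libraries had 47.4, 36.7 and 28.0 CPM and unstimulated wild-type libraries 31.0, 21.5 and 34.4 CPM. Stimulated and unstimulated libraries did not overlap in either genotype, but the margins were narrow. Of all genes tested, 29.8% did not overlap in Gpx4-deficient cells and 42.0% in wild-type cells. In Gpx4-deficient cells the log2 fold change of Ddit3 was 0.58 (SE 0.32, adjusted p = 0.241), and in wild-type cells it rose past the threshold (1.08, SE 0.32, adjusted p = 0.0493). The wild-type call was lost when any 1 of 5 of the 6 wild-type libraries, all but stimulated replicate 3, was left out (adjusted p of 0.0837 to 0.232), and the difference between the genotypes in this response was not called (-0.49, SE 0.45, adjusted p = 0.843).

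Atf3 encodes a stress-inducible factor of the ATF/CREB family that can repress or activate its targets and pairs with other leucine zipper proteins. It is on chromosome 1 from 191170296 to 191218039 (minus strand). Stimulated Gpx4-deficient libraries had 296, 78.5 and 81.5 CPM, and stimulated wild-type libraries had 291, 281 and 307 CPM. Unstimulated levels were 0.703, 17.3 and 16.9 CPM in Gpx4-deficient libraries and 3.33, 4.23 and 14.9 CPM in wild-type libraries. Replicate 1 of the stimulated Gpx4-deficient cells was thus at the wild-type level while replicates 2 and 3 were far below it. Atf3 rose with stimulation by 3.71 on the log2 scale in Gpx4-deficient cells (SE 0.96, adjusted p = 0.0223) and by 5.29 in wild-type cells (SE 1.04, adjusted p = 0.00513). The call in Gpx4-deficient cells was lost without stimulated replicate 1 (adjusted p = 0.0636) or unstimulated replicate 3 (0.0541).

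Atf5, which encodes a relative of ATF4 linked to the mitochondrial stress response, lies on chromosome 7 from 44812256 to 44816658 (minus strand). It was barely detected, with 1, 64 and 1 counts in stimulated Gpx4-deficient libraries, 4, 19 and 6 counts in stimulated wild-type libraries, 14, 2 and 14 counts in unstimulated Gpx4-deficient libraries and 1, 0 and 0 counts in unstimulated wild-type libraries. A single library held nearly all the counts of the stimulated Gpx4-deficient group. Atf5 was not called in any comparison. Its 29 counts in stimulated against 1 count in unstimulated wild-type cells gave a depth-scaled ratio of 30.2 (exact 95% interval 5.0 to 1230, counting error only). Exons of Atf5 share 82 bases (4.11%) with Nup62 and with Il4i1 on the opposite strand, and whether counting used strand is not given, so these few counts are uncertain.

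Asns makes asparagine from aspartate and glutamine and is a standard ATF4 target. It lies on chromosome 6 from 7675169 to 7693254 (minus strand) and had the largest fitted rise among the 10 in both genotypes. Its level was 342, 465 and 399 CPM in stimulated Gpx4-deficient libraries and 490.2, 424 and 412 CPM in stimulated wild-type libraries, against 18.1, 0.999 and 17.1 CPM in unstimulated Gpx4-deficient libraries and 6.73, 5.16 and 8.78 CPM in unstimulated wild-type libraries. The groups stood far apart by stimulation and overlapped by genotype. The log2 fold change with stimulation was 5.06 in Gpx4-deficient cells (SE 0.74, adjusted p = 0.00069) and 6.0 in wild-type cells (SE 0.77, adjusted p = 0.000266).

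Trib3 encodes a pseudokinase that ATF4 and CHOP induce and that in turn restrains both. The gene is on chromosome 2 from 152337422 to 152344032 (minus strand). Stimulated Gpx4-deficient libraries held 96.6, 96.3 and 45.8 CPM and stimulated wild-type libraries 203, 209.7 and 154 CPM. Unstimulated Gpx4-deficient libraries held 0.246, 15.8 and 5.70 CPM and unstimulated wild-type libraries 5.61, 4.97 and 7.05 CPM. All stimulated Gpx4-deficient libraries lay between the unstimulated ones and the stimulated wild-type ones. The rise with stimulation was 3.46 on the log2 scale in Gpx4-deficient cells (SE 0.89, adjusted p = 0.0217) and 5.00 in wild-type cells (SE 0.96, adjusted p = 0.00424). Without unstimulated replicate 3 the call in Gpx4-deficient cells was lost (adjusted p = 0.0824).

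Sesn2 and Ddit4 both encode brakes on the growth kinase mTORC1. Sesn2, a leucine sensor that acts on the GATOR2 complex, lies on chromosome 4 from 132492032 to 132510501 (minus strand). It had 201, 127 and 236 CPM in stimulated Gpx4-deficient libraries, 205, 302 and 208 CPM in stimulated wild-type libraries, 50.3, 51.5 and 25.9 CPM in unstimulated Gpx4-deficient libraries and 31.7, 57.6 and 34.6 CPM in unstimulated wild-type libraries. Levels separated by stimulation and overlapped between the genotypes. Sesn2 rose 4.42-fold in Gpx4-deficient cells (log2 fold change 2.14, SE 0.34, adjusted p = 0.00121) and 5.77-fold in wild-type cells (2.53, SE 0.35, adjusted p = 0.00042).

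Ddit4 encodes REDD1, which acts through the TSC complex, and lies on chromosome 10 from 59949669 to 59951834 (minus strand). It stayed low, at 6.93, 3.39 and 0.528 CPM in stimulated Gpx4-deficient libraries, 5.57, 2.82 and 5.86 CPM in stimulated wild-type libraries, 4.81, 6.96 and 4.45 CPM in unstimulated Gpx4-deficient libraries and 3.72, 4.12 and 4.41 CPM in unstimulated wild-type libraries. Stimulated and unstimulated libraries overlapped. No call was made for stimulation in Gpx4-deficient cells (log2 fold change -0.58, SE 0.96, adjusted p = 0.757) or in wild-type cells (0.22, SE 0.96, adjusted p = 0.946).

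Ppp1r15a encodes GADD34, the stress-induced subunit that brings protein phosphatase 1 to eIF2 alpha and so ends the response. It lies on chromosome 7 from 45522916 to 45526268 (minus strand) and was the only one of the 10 called lower with stimulation. Stimulated Gpx4-deficient libraries had 393, 394 and 282 CPM and stimulated wild-type libraries 477, 468 and 469 CPM. Unstimulated Gpx4-deficient libraries had 1994, 2339 and 2193 CPM and unstimulated wild-type libraries 1655, 1405 and 1733 CPM. No group overlapped another, and the Gpx4-deficient libraries held both the highest and the lowest values. The log2 fold change with stimulation was -2.61 in Gpx4-deficient cells (SE 0.14, adjusted p = 2.03e-07) and -1.76 in wild-type cells (SE 0.13, adjusted p = 3.60e-06). Ranked by p, this fall was number 27 of 14827 genes in Gpx4-deficient cells and number 88 in wild-type cells.

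Nupr1 encodes a small stress-induced nuclear protein that acts with chromatin and transcription factors. It lies on chromosome 7 from 126623249 to 126630861 (minus strand). Its level was 5.10, 11.7 and 7.99 CPM in stimulated Gpx4-deficient libraries, 6.71, 7.73 and 5.26 CPM in stimulated wild-type libraries, 0.703, 1.77 and 1.70 CPM in unstimulated Gpx4-deficient libraries and 0.0774, 0 and 0.827 CPM in unstimulated wild-type libraries. Every stimulated library lay above every unstimulated one. Within a genotype, 29.8% (Gpx4-deficient) and 42.0% (wild type) of all genes tested did not overlap by stimulation in one direction or the other. Neither genotype passed the edgeR threshold, with a log2 fold change of 2.57 in Gpx4-deficient cells (SE 1.33, adjusted p = 0.221) and 4.43 in wild-type cells (SE 1.45, adjusted p = 0.0771). In wild-type cells the DESeq2 test (adjusted p = 0.000745) and limma-voom (0.00786) did call it.

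Scaled by exon length, the order of the levels differed between stimulated and unstimulated cells. In stimulated Gpx4-deficient cells Asns led with 147 ± 22.5 CPM per kb (SD, n = 3), then Ppp1r15a with 121 ± 21.9, Atf4 with 89.6 ± 13.7, Atf3 with 70.6 ± 58.0, Sesn2 with 54.2 ± 16.1, Trib3 with 37.4 ± 13.8 and Ddit3 with 32.7 ± 6.69 CPM per kb. In stimulated wild-type cells the order was Asns with 162 ± 15.4, Ppp1r15a with 160.4 ± 1.70, Atf3 with 136 ± 6.19, Atf4 with 119 ± 8.02, Trib3 with 88.8 ± 14.4, Sesn2 with 68.5 ± 15.9 and Ddit3 with 35.6 ± 11.0 CPM per kb. In the Gpx4-deficient order no neighbours from Asns to Ddit3 lay further apart than the sum of their SDs, though some gaps exceeded either SD alone. In the wild-type order Asns beside Ppp1r15a and Trib3 beside Sesn2 lay within the sum of their SDs, and the other neighbours were further apart. Without stimulation Ppp1r15a stood alone, at 741 ± 59.1 CPM per kb in Gpx4-deficient cells and 544 ± 58.3 CPM per kb in wild-type cells, with Atf4 next at 58.1 ± 7.59 and 46.6 ± 2.47 CPM per kb. The other 8 genes reached at most 21.8 CPM per kb in both unstimulated groups. Nupr1, Ddit4 and Atf5 were the lowest 3 in each of the 4 groups, with Atf5 last.

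Summed over the 10 genes, the level was 1459 ± 122 CPM in stimulated Gpx4-deficient cells, 1986 ± 75.7 CPM in stimulated wild-type cells, 2430.4 ± 195 CPM in Gpx4-deficient cells left unstimulated and 1802 ± 177 CPM in unstimulated wild-type cells (SD, n = 3 each). Ppp1r15a made up 20.6 to 28.0% and 23.0 to 24.7% of this sum in the stimulated groups and 89.1 to 90.3% and 87.4 to 89.7% in the unstimulated ones. The other 9 genes together reached 1102 ± 95.5, 1515 ± 73.9, 255 ± 28.0 and 205 ± 15.9 CPM in the same order of groups. Across the 12 libraries, which mainly fall into stimulated and unstimulated ones, Atf3 and Trib3 were the most alike of the 10 (Pearson r = 0.966 of log2 CPM), and Ppp1r15a ran opposite to Asns (r = -0.93) and Sesn2 (r = -0.928). These correlations are descriptions and share libraries and scaling.

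Gpx4-deficient and wild-type cells were next compared in the stimulated state. None of the 10 genes was called by edgeR at this comparison, where 2.27% of all genes tested were called. An unadjusted p under 0.05 was found for 2 of the 10 and for 18.3% of all genes. DESeq2 also called none of them, while limma-voom called Trib3 (log2 fold change -1.29, adjusted p = 0.0409). The median log2 fold change was -0.37, with 8 of 10 below 0, against 0 over all genes. Atf4, Trib3 and Ppp1r15a were lower in every stimulated Gpx4-deficient library than in any wild-type one, and no member was higher in all. Over all genes tested, 20.1% did not overlap between these groups in one direction or the other. Mean Atf4 was 211 ± 32.2 CPM in Gpx4-deficient cells and 280.1 ± 18.9 CPM in wild-type cells (log2 fold change -0.41, SE 0.15, adjusted p = 0.178). Ppp1r15a averaged 356 ± 64.3 CPM against 471 ± 4.99 CPM (-0.40, SE 0.13, adjusted p = 0.137). For Trib3 the means were 79.6 ± 29.2 CPM and 189 ± 30.6 CPM (-1.25, SE 0.82, adjusted p = 0.458).

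Asns, by contrast, was close in the stimulated genotypes, at 402 ± 61.6 CPM in Gpx4-deficient cells and 442 ± 42.1 CPM in wild-type cells (log2 fold change -0.14, SE 0.62, adjusted p = 0.955). Ddit3 had 56.0 ± 11.5 CPM and 61.0 ± 18.8 CPM (-0.12, SE 0.31, adjusted p = 0.899), and Sesn2 had 188 ± 55.8 CPM and 238 ± 55.3 CPM (-0.34, SE 0.33, adjusted p = 0.655). The standard errors leave room for moderate differences in each. The spread of a gene was estimated over all 12 libraries, so unstimulated spread also enters the standard errors of this comparison. Among unstimulated Gpx4-deficient libraries the highest exceeded the lowest by a factor of 18.1 for Asns and 64.2 for Trib3. The spread itself was wider in Gpx4-deficient cells: the coefficient of variation of stimulated libraries was larger there for 9 of the 10 genes, and for 76.5% of 13897 genes tested with counts in both groups. Without replicate 3, the library that stood apart, and unstimulated replicate 1, a choice made after seeing the data, the log2 fold changes were -0.49 for Atf4 (adjusted p = 0.0797), -0.22 for Ppp1r15a (0.247) and -0.93 for Trib3 (0.207).

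Without stimulation most fold changes between the genotypes ran the other way. Those of Atf5 and Nupr1 were above 0 in both states (log2 fold changes of 0.84 and 0.33 with stimulation). All 10 log2 fold changes of Gpx4-deficient against wild-type cells were above 0 (median 0.43, against 0.01 over all genes), yet none was called by edgeR, DESeq2 or limma-voom, and 1 had an unadjusted p under 0.05, as did 5.8% of all genes. Only 0.0674% of all genes were called here by edgeR. Ppp1r15a averaged 2175 ± 173 CPM in Gpx4-deficient cells and 1598 ± 171 CPM in wild-type cells (log2 fold change 0.45, SE 0.13, adjusted p = 0.48). Atf4 averaged 137 ± 17.9 CPM and 109.8 ± 5.83 CPM (0.32, SE 0.15, adjusted p = 0.863). These genes, Ddit4 and Atf5 were higher in every Gpx4-deficient library than in any wild-type one, and Atf5 rested on 30 counts in 3 libraries against 1 count in 3 (depth-scaled ratio 29.0, exact 95% interval 4.82 to 1180, counting error only). Over all genes tested, 18.3% did not overlap between the unstimulated genotypes in one direction or the other.

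Atf3, Trib3 and Asns varied widely among unstimulated Gpx4-deficient libraries, and Nupr1 among unstimulated wild-type ones. In the Gpx4-deficient libraries replicate 1 was lowest for Atf3, Trib3 and Nupr1, and replicate 2 was lowest for Asns. The highest Trib3 library of that group exceeded the lowest by a factor of 64.2, against 1.42 among wild-type libraries. Without replicate 1, and without stimulated replicate 3, Sesn2 was below 0 (log2 fold change -0.10) and the other 9 stayed above it.

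**Figure D3:**
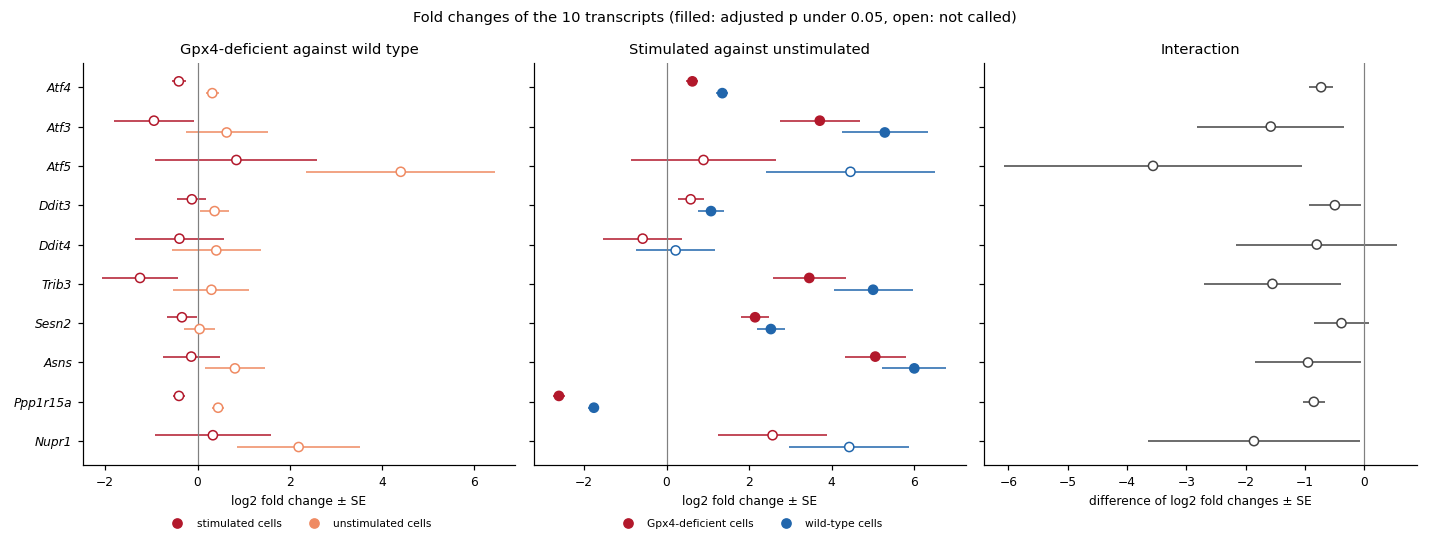
Points are log2 fold changes with SE bars from the edgeR fit for each gene, for Gpx4-deficient against wild-type cells (left), stimulated against unstimulated cells (middle) and the difference between the genotypes in the stimulation response (right), and filled points passed an adjusted p of 0.05. Open points fill the left and right panels, and all 10 points of the right panel lie below 0.

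The interaction asks whether the stimulation response itself differed between the genotypes. It was below 0 for all 10 genes, with a median of -0.90 on the log2 scale against -0.01 over all genes, which for the genes that rose means a smaller rise in Gpx4-deficient cells and for Ppp1r15a a larger fall. None was called by edgeR, where 0.202% of all genes were called, and 2 had an unadjusted p under 0.05, as did 8.75% of all genes. Ppp1r15a came nearest, at -0.85 (SE 0.18, unadjusted p = 0.000611, adjusted p = 0.124), number 73 of all genes by p, and DESeq2 did call it (-0.81, adjusted p = 0.00233). Atf4 followed at -0.73 (SE 0.21, unadjusted p = 0.0046, adjusted p = 0.313). In Asns, Trib3 and Atf3 the differences of -0.95, -1.55 and -1.58 had standard errors of 0.89, 1.16 and 1.24. The genotype comparisons, the stimulation comparisons and the interaction use the same 12 libraries, so their values are not independent.

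The rest of the pathway was read from 9 lists that leave out the 10 genes. With stimulation, 7.45% of all genes tested were called higher and 7.83% lower in Gpx4-deficient cells, and 6.12% and 5.41% in wild-type cells. These shares stand beside the stimulation counts of each list below. Enzymes of amino acid synthesis and one-carbon metabolism rose with stimulation, with 10 of 12 tested genes called higher and none lower in each genotype, and medians of 2.48 in Gpx4-deficient cells and 2.67 in wild-type cells on the log2 scale. Got1, a transaminase that links aspartate and glutamate, rose by 3.40 in Gpx4-deficient cells and by 3.26 in wild-type cells. Shmt2, the mitochondrial serine hydroxymethyltransferase, rose by 2.42 in Gpx4-deficient cells and 2.65 in wild-type cells. Mthfd2, the next enzyme of the mitochondrial folate pathway, rose by 2.98 and 2.83, and Psat1 of serine synthesis by 2.54 and 2.69.

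Amino acid transporters followed the same course, with 9 of 10 called higher and none lower in each genotype (medians 2.95 and 3.47 in Gpx4-deficient and wild-type cells). Slc7a5 and Slc3a2, the subunits of the large neutral amino acid transporter LAT1, rose by 3.16 and 2.08 in Gpx4-deficient cells and by 3.71 and 2.25 in wild-type cells. Of 13 aminoacyl-tRNA synthetases, which charge tRNAs and include many ATF4 targets, 12 were called higher in each genotype (medians 2.13 and 2.25). Vars, the valyl-tRNA synthetase, was the exception. It fell by 0.81 with stimulation in Gpx4-deficient cells (SE 0.15, adjusted p = 0.00331), and had a log2 fold change of 0.35 in wild-type cells (SE 0.15, adjusted p = 0.174).

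Other known ATF4 and CHOP targets were mixed. Of 20 tested, 8 were called higher and 2 lower in Gpx4-deficient cells (median 0.28) and 9 higher and 2 lower in wild-type cells (median 1.39). Chac1, an enzyme that degrades glutathione and a sensitive target of this pathway, had the largest rise of the list. It averaged 61.8 ± 21.0 CPM in stimulated Gpx4-deficient cells and 86.0 ± 14.8 CPM in stimulated wild-type cells, against 0.148 ± 0.113 CPM and 0.217 ± 0.221 CPM in the unstimulated cells of each genotype. Eif4ebp1, the translation repressor 4E-BP1, rose by 3.47 in Gpx4-deficient cells and by 3.92 in wild-type cells. Tsc22d3 and Map1lc3b were the members called lower in both.

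Genes upstream of ATF4 moved in both directions. Of 19 tested eIF2 alpha kinases, phosphatases and translation factors, 6 were called higher and 1 lower in Gpx4-deficient cells, and 5 higher and 1 lower in wild-type cells (medians 0.16 and 0.38). Over all genes tested, 7.45% were called higher and 7.83% lower in Gpx4-deficient cells, and 6.12% and 5.41% in wild-type cells. Eif2s2, the beta subunit of eIF2, rose by 2.37 in Gpx4-deficient cells and by 1.86 in wild-type cells. Ppp1r15b, the constitutive counterpart of Ppp1r15a, had a log2 fold change of 0.53 in Gpx4-deficient cells (SE 0.23, adjusted p = 0.145) and rose by 1.26 in wild-type cells (SE 0.23, adjusted p = 0.00341). Among the catalytic subunits that Ppp1r15a recruits, Ppp1cb rose by 0.92 and 0.97 and Ppp1ca fell by 0.71 and 0.86 in Gpx4-deficient and wild-type cells. None of the kinase genes Eif2ak1, Eif2ak2, Eif2ak3 and Eif2ak4 was called in either genotype.

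The arms of the unfolded protein response outside ATF4 went both ways, with 3 of 21 called higher and 4 lower in Gpx4-deficient cells and 2 higher and 3 lower in wild-type cells (medians 0.10 and 0.02). Xbp1 rose by 1.25 and 0.99, while the chaperone gene Calr fell by 0.92 and 0.77. The mTORC1 inputs had 2 of 16 higher and 3 lower in Gpx4-deficient cells and 4 higher and 2 lower in wild-type cells (medians -0.17 and 0.27). In the same list Sesn1 fell by 1.30 and 1.47, opposite to its relative Sesn2. Of 14 p53 targets, 2 were called higher and 3 lower in Gpx4-deficient cells and 3 higher and 2 lower in wild-type cells (medians -0.12 and 0.15), with Cdkn1a rising by 2.92 and 3.50. For all genes tested the shares were 7.45% higher and 7.83% lower in Gpx4-deficient cells, and 6.12% and 5.41% in wild-type cells.

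**Figure D4:**
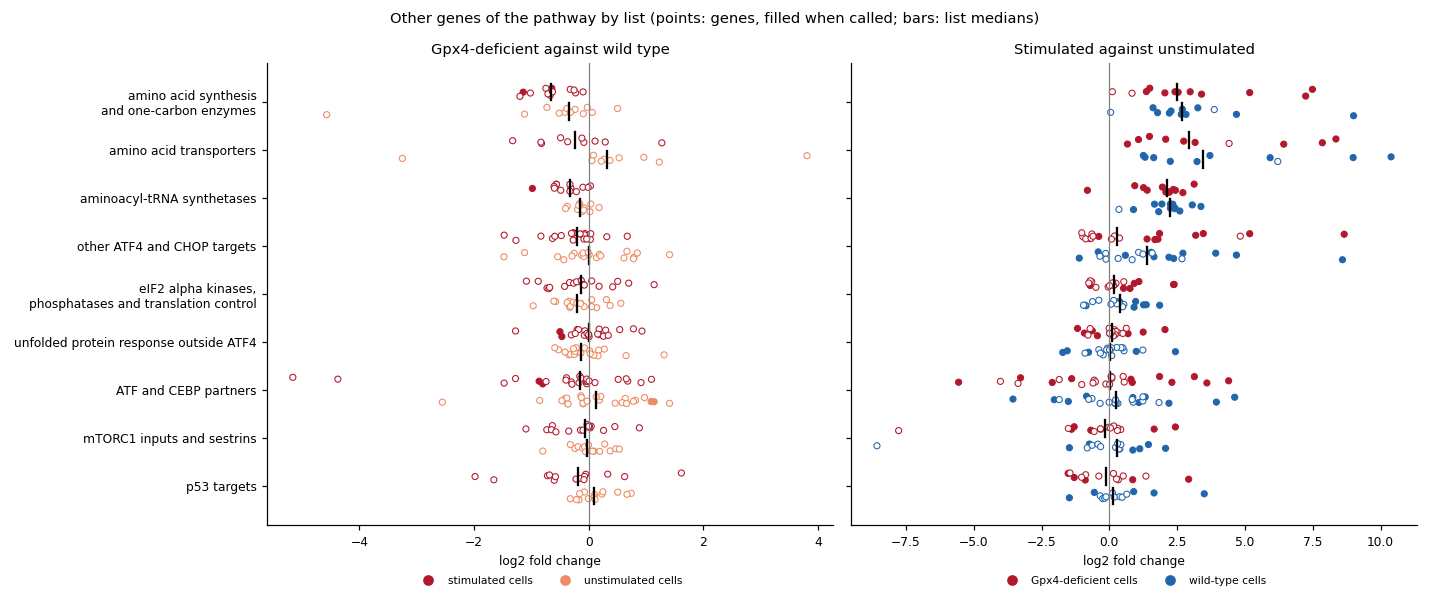
Each point is 1 gene of a pathway list, placed by its log2 fold change for Gpx4-deficient against wild-type cells (left) or stimulated against unstimulated cells (right), filled when called, and black bars are list medians. On the right the first 3 lists, on amino acid synthesis, transport and tRNA charging, lie almost wholly above 0, and on the left few points of any list are filled.

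Between the stimulated genotypes edgeR called a few of these genes, all lower in Gpx4-deficient cells, where 2.27% of all genes tested were called. In amino acid synthesis, 2 of 12 were lower and all 12 log2 fold changes were below 0 (median -0.66, against 0 over all genes). Phgdh, the first enzyme of serine synthesis, averaged 612 ± 28.0 CPM in Gpx4-deficient cells and 1351 ± 195 CPM in wild-type cells (log2 fold change -1.14, SE 0.16, adjusted p = 0.00473). Shmt2 averaged 756 ± 72.1 CPM and 1180.0 ± 52.8 CPM (-0.64, SE 0.11, adjusted p = 0.0149). Vars was the 1 synthetase of 13 called (-0.98, SE 0.15, adjusted p = 0.00691), and Calr and Hspa5 were the 2 of 21 unfolded protein response genes called, at -0.50 and -0.47 (adjusted p of 0.0378 and 0.048). No gene of the transporter list, the other targets or the eIF2 alpha list was called by edgeR between the stimulated genotypes. Calls of list genes were not rechecked gene by gene in other settings. The fit of the stimulated libraries alone called far fewer genes.

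The next list holds factors that pair with ATF4, CHOP and ATF3, or belong to their families. Over all genes tested, 2.27% were called between the stimulated genotypes, 0.0674% between the unstimulated ones and 0.202% in the interaction. Only Fos, Jun and Junb of this list were called in any of these. Of 25 tested, edgeR called Fos and Junb lower in stimulated Gpx4-deficient cells and Fos and Jun higher in unstimulated ones. It also called the interaction for Fos, Junb and Jun. These calls were not rechecked gene by gene in other settings, but limma-voom called no gene at all in the interaction. Fos averaged 70.1 ± 12.9 CPM in stimulated Gpx4-deficient cells, 128 ± 10.2 CPM in stimulated wild-type cells, 3307 ± 90.7 CPM in Gpx4-deficient cells left unstimulated and 1499 ± 199 CPM in unstimulated wild-type cells. Its interaction was -2.01 on the log2 scale (adjusted p = 0.00206), that of Junb -1.27 (adjusted p = 0.028) and that of Jun -1.24 (adjusted p = 0.0492). Of the same list, 7 were called higher and 4 lower with stimulation in Gpx4-deficient cells and 6 higher and 4 lower in wild-type cells (medians 0.01 and 0.25).

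Fos was also the gene whose pattern was most like that of Ppp1r15a among 9502 genes with a mean of at least 5 CPM (Pearson r = 0.996 of log2 CPM over 12 libraries), followed by Dusp1 (r = 0.991) and Il27ra (r = 0.986). For Atf4 the likest genes were Gadd45b (r = 0.986), Hspa9 (0.967) and Nr4a1 (0.966). Atf3 was most like Pwp2 (0.989), Trib3 (0.966) and Metrnl (0.96), and Trib3 most like Tmbim1 (0.984), Pwp2 (0.979) and Ddx41 (0.968). For Asns the nearest were Plagl1 (0.982), Ly75 and Ehd1, for Sesn2 Eif3j1 (0.976), Fbl and Arih2, and for Ddit3 Mri1 (0.923), Mid1ip1 and Trf. Nupr1 was nearest to Nfat5 (0.955), Ccl3 and Ranbp2, Ddit4 to Coil (0.966), Tcaim and Parp12, and Atf5, with few counts, to Lrrc8d at 0.811. The points share libraries, scaling and the split by stimulation.

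Markers of other cells were measured beside these results. The summed level of 6 monocyte and macrophage markers was 60.3 to 90.9 CPM in stimulated Gpx4-deficient libraries, 23.0 to 56.9 CPM in stimulated wild-type ones, 105 to 151 CPM in unstimulated Gpx4-deficient ones and 136 to 234 CPM in unstimulated wild-type ones, with Fcgr1 at 0 in both stimulated groups. For 4 plasma cell markers the ranges were 85.4 to 145, 19.8 to 25.4, 44.2 to 88.6 and 30.8 to 84.9 CPM in the same order, with Tnfrsf17 at 0 in every group but unstimulated Gpx4-deficient cells. Jchain made up most of this sum, with means of 102, 20.7, 56.2 and 50.6 CPM, and Sdc1 and Mzb1 averaged at most 4.34 CPM in any group. Neutrophil markers (7 genes) summed to 4.88 to 42.7, 13.4 to 63.3, 6.92 to 11.7 and 39.8 to 142 CPM, and Ly6g was at 0 in all groups but stimulated wild-type cells. The sums for B cells (5 markers), dendritic cells (5), CD8 and NK cells (6) and erythroid cells and platelets (5) stayed between 3.51 and 62.7 CPM in every library. For 4 stromal and epithelial markers they were 52.9 to 93.8, 92.0 to 106, 178 to 211 and 176 to 193 CPM. Most of this was Pecam1, with means of 50.6, 78.9, 179 and 161 CPM. Epcam averaged 19.5, 19.2, 13.8 and 21.6 CPM, and Col1a1 and Col1a2 at most 1.98 CPM in any group. Several of these sums thus moved with stimulation or genotype, as the mitochondrial share did, and their part in the values above was not tested.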

How the data were processed

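The authors deposited one table of RSEM gene-level expected counts for the 12 libraries, made from poly(A) RNA (TruSeq stranded mRNA kit, per the labels' protocols). The submitters' processing notes name the build GRCm38. The aligner, its version and the use of strand in counting are not stated there or in the labels. Every column was matched to its sample by title and description.

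Expected counts were rounded to whole numbers and tested with edgeR 4.0.16 in R 4.3.3 (TMM scaling, filterByExpr, robust quasi-likelihood F test). The model held the 4 group means and all 12 libraries, which leaves 8 residual degrees of freedom, and p-values were Benjamini-Hochberg adjusted over 14827 genes, with calls at an adjusted p under 0.05. SE is the log2 fold change divided by the square root of F. DESeq2 1.42.0, limma-voom (limma 3.58.1), other scaling and filters, a replicate block, single comparisons and leaving out libraries were alternatives. Same-numbered libraries did not deviate together (18 correlations between -0.0542 and 0.0604). The test was checked on simulated counts that gave each gene the same dispersion in every group. The wider spread of stimulated Gpx4-deficient libraries was not simulated. Likeness used log2 CPM with a prior count of 2. Coordinates come from the GENCODE annotation of GRCm38 and promoter windows from RefSeq GRCm38.p6. The members and gene lists were chosen with earlier results of these data known. Genes named from a list are among its first 4 by adjusted p in a comparison described. Exceptions are the eIF2 alpha kinase genes, picked for their role, and Tsc22d3, Map1lc3b, Vars (stimulation) and Ppp1r15b (in Gpx4-deficient cells), picked after their values were seen.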

Additional observations from a re-analysis of the deposited data

Results flagged for a closer look

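For Atf4 and Ppp1r15a the genotype difference had opposite directions in the 2 states, with no overlap between the libraries of the genotypes in either. Lying wholly below wild type when stimulated and wholly above it when unstimulated, as these genes did, was met by 61 of the 14827 genes tested (0.411%). Genes with the reverse order were not counted. Of all genes, 20.1% did not overlap in the stimulated and 18.3% in the unstimulated state in one direction or the other. Stimulated Gpx4-deficient libraries all lay below the stimulated wild-type ones, and unstimulated Gpx4-deficient libraries all lay above the unstimulated wild-type ones. The genotype effect in stimulated cells minus that in unstimulated cells was -0.73 on the log2 scale for Atf4 and -0.85 for Ppp1r15a. The edgeR interaction test of these differences did not pass the threshold (adjusted p = 0.313 and 0.124).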

How the results depend on the processing

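Over 697 recomputed values of single genes, 677 kept their side of the threshold, 15 calls were lost, 5 were gained and none reversed a called direction, while 19 uncalled values changed sign. Of the 10 genes, limma-voom called 1 between the stimulated genotypes (Trib3), where the edgeR fit called 0, and DESeq2 called 1 in the interaction (Ppp1r15a), where edgeR called 0. With only the libraries of the comparison in the fit, 3 genes were called for stimulation in Gpx4-deficient cells in place of 6: Atf4 (adjusted p = 0.11), Atf3 (0.0961) and Trib3 (0.14) missed the threshold. That fit has fewer samples, and fits of the other single comparisons left Atf5 out for low counts. In wild-type cells the Ddit3 call was also lost under DESeq2 size factors (0.0566), without the filter (0.0891), with limma-voom (0.0674) and under the replicate block (0.0936), and Nupr1 was gained without unstimulated replicate 3 (0.0238). The labels do not say whether a replicate number pairs libraries across groups. Under the replicate block 6 of the 10 genes were called for stimulation in wild-type cells and no other call among the 10 changed, and over all genes it called 171 between the stimulated genotypes, 3 between the unstimulated ones and 5 in the interaction. Over all genes edgeR called 337, 10, 2266, 1709 and 30 (genotype with and without stimulation, stimulation in Gpx4-deficient and in wild-type cells, interaction), and DESeq2 called 1532, 183, 3586, 2639 and 385. Fits of single comparisons called 22 between the stimulated genotypes, 1022 for stimulation in Gpx4-deficient cells and 3499 in wild-type cells, and limma-voom 18 between the unstimulated genotypes and 0 in the interaction. The cause of these differences was not tested. With limma-voom the median of all genes was -0.21 between the stimulated genotypes and -0.145 in the interaction, against 0 and -0.01 with edgeR. In every setting 8 to 10 of the genes had a positive genotype difference without stimulation, 1 to 3 with it, and 0 in the interaction. Counts limit Atf5 and the unstimulated Nupr1 values most.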
